A study of Mus musculus with 2 samples.

Results

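Of 2018 cells that passed the filters in the 2 libraries, 50 were chosen by a stromal marker score, 19 from EL1 and 31 from WTg. The score was the mean over 10 genes (Igfbp7, Sparc, Mgp, Rgs5, Dcn, Col1a2, Col3a1, Cdh5, Pecam1 and Flt1) of the natural log of 1 plus the counts per 10000 unique molecular identifiers (UMIs), and the 50 highest cells were taken. EL1 mice (FVB/N EL1-Luc/EL1-TAg) carry SV40 large T antigen and firefly luciferase, each under the acinar elastase I promoter, so both groups share the T-antigen-driven pancreatic tumour. WTg mice (EL1-Luc/EL1-Tag x CAG-Mettl3) carry these transgenes plus the coding sequence of Mettl3, driven in all tissues by CAG, and since the Mettl3 line was made on another strain, the strain background differs together with the transgene. Both were sampled at 6 weeks of age, with 1 library each, and the number of animals behind a library was not given in the sources used here. Tumours were digested with collagenase D and the labels call the cells epithelial. UMI totals over the kept cells were 37961287 in EL1 (1113 cells) and 33007683 in WTg (905 cells). The libraries shared 15 barcodes among all deposited ones and 0 among the kept cells.

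Stroma is the part of a tumour that is not tumour epithelium. Endothelial cells line vessels and respond to VEGF ligands through the receptors encoded by Kdr and Flt1, to angiopoietins through Tek, and to Notch ligands between neighbouring cells. Mural cells (pericytes and smooth muscle) wrap these vessels, and fibroblasts lay down collagens and proteoglycans such as decorin (Dcn) and, in pancreatic tumours, are described as a contractile myofibroblast state and an inflammatory state that secretes Il6 and chemokines.

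Promoter sequences are shown for genes of the endothelial and mural lists used below, to give the letters that sit at their start sites. Each is the RefSeq window from 250 bases before to 50 after the start, build GRCm38.p6, 5′ to 3′ on the gene's strand. Capitals mark AGGAAG on either strand, a short sequence of the kind ETS factors bind, in Tie1 (an endothelial receptor, chr4:118489800-118490099, minus strand) and Robo4 (an endothelial guidance receptor, chr9:37401722-37402021, plus strand), and the CArG box of serum response factor in Myl9 (a myosin light chain of contractile cells, chr2:156775214-156775513, plus strand).

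Tie1: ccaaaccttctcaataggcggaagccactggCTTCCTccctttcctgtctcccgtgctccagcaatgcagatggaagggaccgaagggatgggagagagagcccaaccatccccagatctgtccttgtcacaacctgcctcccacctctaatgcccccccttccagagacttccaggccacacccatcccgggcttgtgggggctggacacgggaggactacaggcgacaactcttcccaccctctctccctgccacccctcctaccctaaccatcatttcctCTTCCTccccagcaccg

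Robo4: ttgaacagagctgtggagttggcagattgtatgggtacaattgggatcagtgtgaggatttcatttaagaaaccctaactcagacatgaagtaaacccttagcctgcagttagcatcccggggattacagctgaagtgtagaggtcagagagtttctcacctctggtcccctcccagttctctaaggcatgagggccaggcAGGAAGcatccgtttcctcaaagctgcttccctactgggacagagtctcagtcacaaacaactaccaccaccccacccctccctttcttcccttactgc

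Myl9: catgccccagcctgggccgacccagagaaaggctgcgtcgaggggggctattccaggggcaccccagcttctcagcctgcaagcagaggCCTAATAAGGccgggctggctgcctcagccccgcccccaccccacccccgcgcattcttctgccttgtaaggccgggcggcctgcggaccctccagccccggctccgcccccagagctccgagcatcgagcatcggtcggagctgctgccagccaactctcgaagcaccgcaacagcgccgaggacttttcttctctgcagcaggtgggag

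AGGAAG stood in 2 places in the Tie1 window and 1 in Robo4. Among 20 endothelial list genes, 10 had a window, and 7 of these held AGGAAG in at least 1 of their windows. It was also present in 8 of the 13 mesenchymal genes with a window. Counted by window, AGGAAG stood in 8 of 14 endothelial windows (57.1%), 11 of 18 mesenchymal windows (61.1%) and 35.4% of all 32851 windows. A match is a description of the letters and not a binding site. The CArG box stood in 1.63% of all windows and, of the 9 mural genes with a window, only in Myl9. Both motifs were chosen with the values known.

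The score separated 14 cells from the rest. These 14 scored from 1.01 to 3.30 and held 29 to 4166 UMIs of the 10 genes, 14244 in all. The next cell scored 0.340, and the other 36 chosen cells held 89 such UMIs together, 19 of them a single one. The last chosen cells scored 0.0502, 0.0499 and 0.0499, and the next cells outside scored 0.0482, 0.0456 and 0.0455, so the limit of 50 cells fell where 1 UMI decides. The line at a score of 1 was drawn after the scores had been seen.

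**Figure D1:**
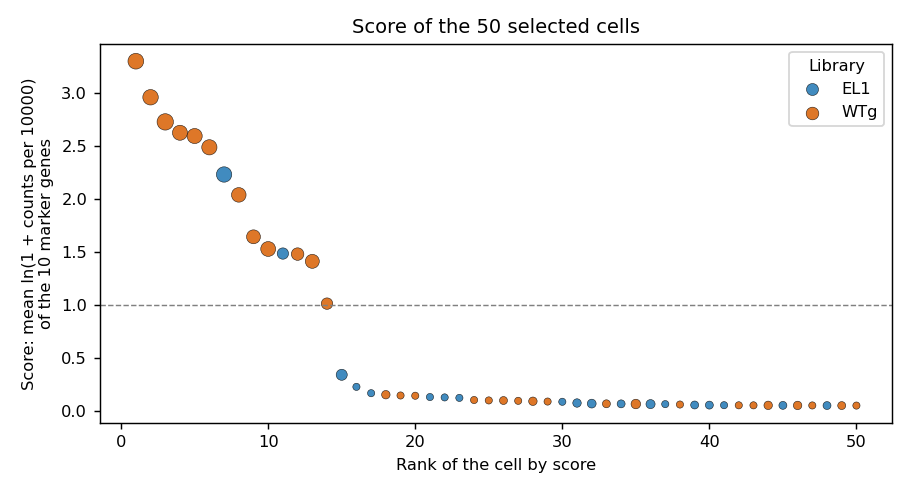
Score of each of the 50 chosen cells (vertical axis) against its rank (horizontal axis), coloured by library; larger points have more UMIs of the 10 genes and the dashed line is a score of 1. The 14 cells above the line reach down to 1.01 and the next cell lies at 0.340.

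The label held for 13 of the 14 cells by their endothelial or mesenchymal list genes and not for the 36. The 14th, named WTg-N1 below, had 0 of 20 endothelial and 3 of 20 mesenchymal list genes at 1308 UMIs, with 6881 CPM (UMIs per 1000000) of acinar genes. It also held 3 of 14 pericyte and smooth muscle genes at 5352 CPM, against 20.6 CPM in the kept cells outside the 50. Among the 36, 10 cells (3 EL1, 7 WTg) carried 9 to 14 of 14 macrophage genes, with a summed macrophage level of 28805 to 106787 CPM. A further 4 cells had at least 5 of 12 T or NK genes, and 1 had at least 5 of 8 neutrophil genes. In these 4 T or NK marked cells all 6 rule UMIs were of Pecam1, an adhesion molecule that leukocytes carry as well as endothelium. The other 21 cells carried tumour epithelium genes, with 8 to 16 of 16 acinar genes and a median of 7 of 10 epithelial genes. No cell of the 36 had more than 4 of the 20 endothelial or 3 of the 20 mesenchymal list genes. Against the 1968 kept cells outside the 50, 12.9% of the genes measured in the 36 were higher by a log2 ratio of 1 or more with at least 3 UMIs. By the same rule all 14 macrophage genes, 2 of 10 endothelial and 3 of 8 mesenchymal genes were higher. The last 2 counts are small and not below the share of all genes. The sums pool the 10 macrophage-marked cells with the others, so these counts do not describe each cell. The class with a UMI of Cdh5 or Pecam1 and none of Col1a2 or Col3a1 (23 cells, 10 EL1 and 13 WTg) was led, by the rule of size, by Vim, Lcp1, Apoe, Cyba and Srgn, of which Lcp1, Cyba and Srgn are genes of leukocytes, so it was not named endothelial as a whole. The class with neither (16 cells) was led by Cebpb and Pim1 at log2 ratios of 2.91 and 2.50. Nothing below is drawn from these 36 cells unless stated.

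The 14 cells are named here by library, class and order of score. The letter B stands for UMIs of both gene pairs, E for Cdh5 or Pecam1 only, M for Col1a2 or Col3a1 only, and N for neither. WTg had 4 B cells, 4 E cells, 3 M cells and 1 N cell. EL1 had 1 E cell and 1 M cell. Their depths ran from 1034 to 118137 UMIs with a median of 24588. EL1-E1 (1034 UMIs), WTg-N1 (1308 UMIs) and WTg-E4 (2315 UMIs) were shallow, and 3 cells had almost no mitochondrial RNA, with 0 mitochondrial UMIs in EL1-E1, 1 in WTg-M1 and 0 in WTg-M2. In the kept cells at large, 14 of EL1 and 13 of WTg had at most 1 mitochondrial UMI. None of the 50 was called a doublet.

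The 14 cells held 0.571% of the UMIs of all kept cells. Among stromal genes that the score did not use, the share of UMIs lying in these cells varied by gene. At least 90% of all UMIs lay in them for 12 of 20 endothelial, 11 of 20 mesenchymal and 6 of 14 pericyte and smooth muscle genes. The share of all genes that reach 90% was not computed, so these counts are descriptions and nothing is read from them. Examples of listed genes are Robo4 and Erg (an ETS factor of endothelium), with 40 of 40 and 48 of 48 UMIs in the 14 cells. Lumican (Lum), a collagen-binding proteoglycan, had 85 of 85. Other listed genes were not particular to them: Podxl had 76 of 657 UMIs, Fbln1 22 of 564, and the mural genes Pdgfrb and Cspg4 44 of 615 and 13 of 532 in the 14 cells. Acinar genes summed to between 237 and 9071 CPM in the 14 cells, against 158163 CPM in the kept cells outside the 50.

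**Figure D2:**
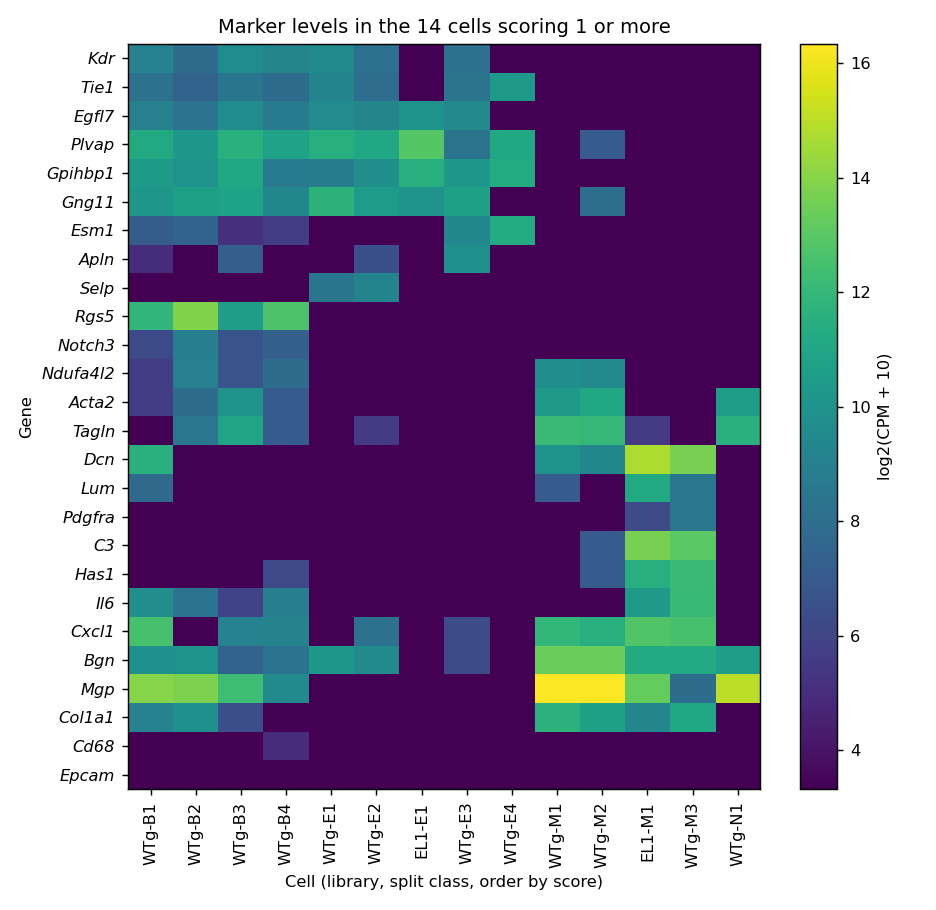
Level of 26 genes (rows) in each of the 14 cells (columns) as log2(CPM + 10); yellow is high and dark violet is 0 UMIs. Plvap and Gpihbp1 are seen in every B and E column, Rgs5 and Notch3 in the B columns alone, and Dcn, C3 and Has1 are highest in EL1-M1 and WTg-M3.

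The 5 E cells were endothelial-like. WTg-E1, WTg-E2 and WTg-E3 each held 19 of the 20 endothelial list genes, WTg-E4 held 12 and EL1-E1 held 9, against 0 to 3 of 20 mesenchymal genes. Kdr, the main VEGF receptor, had 11, 13 and 8 UMIs in WTg-E1 to WTg-E3 and 0 in the shallow EL1-E1 and WTg-E4. Plvap, the diaphragm protein of fenestrated capillaries, had 47, 111, 9 and 5 UMIs in the WTg cells in order and 8 in EL1-E1. Gpihbp1, which carries lipoprotein lipase across capillary endothelium, had 7, 44, 35 and 6 UMIs in the WTg cells and 3 in EL1-E1. All 5 cells therefore held UMIs of both capillary genes. The 20 endothelial genes summed to 9481 CPM in these 5 cells against 33.5 CPM in the kept cells outside the 50. Of the genes measured, 11.0% were higher in the 5 cells by the rule above, and so were the 16 of 20 endothelial genes that reached 10 UMIs. Genes near 0 elsewhere reach 10 UMIs only through the cells where they are high, so such counts are descriptions here and for the classes below, and nothing is read from them. Among the 15 genes with the highest ratio were Gng11 at 1821 CPM in the 5 cells against 0.0430 CPM elsewhere, Gpihbp1 (972 against 0.0430 CPM), Sparcl1 (849 against 0.0286 CPM), Cav1, a caveolar coat protein (695 against 0.0430 CPM), and Fabp4, a fatty acid carrier (16405 against 3.72 CPM).

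The E cells differed among themselves in genes of tip cells and of veins. Tip cells lead a sprout and express Esm1, Apln and Cxcr4. WTg-E3 held 19 UMIs of Esm1, 26 of Apln, 12 of Pgf and 9 of Cxcr4, while WTg-E1 and WTg-E2 held 0 of Esm1 and Cxcr4, and at most 4 of Apln. The summed tip cell level was 9168 CPM in WTg-E3 and 9935 CPM in the shallow WTg-E4 (6 UMIs of Esm1), against 637 and 718 CPM in WTg-E1 and WTg-E2. EL1-E1 had 3868 CPM from 1 of the 10 tip cell genes, Igfbp3, and held 0 UMIs of Esm1, Apln and Cxcr4. Igfbp3 was seen in all 5 E cells and gave most of their tip cell UMIs. The value of EL1-E1 therefore does not place it between the other cells in tip cell state. Selp, the P-selectin that venous endothelium shows to leukocytes, had 29 UMIs in WTg-E2 and 5 in WTg-E1 and none in any other of the 14 cells. WTg-E2 alone of the E cells held Ackr1, a venous chemokine-binding receptor, with 4 UMIs. WTg-E2 also held replication genes, with 12 UMIs of Mcm3, 6 of Mcm2, 6 of Tyms and 5 of Cdk1. Angptl4, a lipase inhibitor, had 33 and 22 UMIs in WTg-E1 and WTg-E2, and 1 in WTg-E3. Lymphatic genes were near 0, with 2 UMIs of Prox1 in WTg-E1 and 0 in the other E cells, and 1 UMI of Lyve1 in WTg-E2. These are single cells, and the differences carry no error between animals.

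The 4 B cells, all WTg, carried a full endothelial set and a mural set at the same time. WTg-B1 to WTg-B4 held 20, 17, 20 and 19 of the 20 endothelial genes, and 10, 13, 13 and 13 of the 14 pericyte and smooth muscle genes. Cdh5, the junction cadherin of endothelium and a score gene, had 39, 27, 210 and 68 UMIs. Rgs5, a regulator of G-protein signalling that marks pericytes and is also a score gene, had 173, 456, 185 and 312 UMIs in these 4 cells and 0 in the other 10 of the 14. Mural genes outside the score were present too. Notch3, the Notch receptor of mural cells, had 3, 14, 11 and 7 UMIs, and Abcc9, a pericyte potassium channel subunit, 4, 13, 19 and 23. The contractile genes were uneven, with Acta2 at 2, 7, 116 and 6 UMIs and Tagln at 0, 10, 231 and 6. WTg-B3, the deepest of the 14, was the cell rich in both. Dcn was found in WTg-B1 alone of the 4, with 138 UMIs. Depths of the B cells were 45458, 30079, 118137 and 46960 UMIs against a median of 34836 in kept WTg cells. Their own median of 46209 UMIs stood above the medians of the E cells (15688) and the M cells (14603). Whether a barcode held 1 cell with both gene sets or an endothelial and a mural cell together cannot be told apart. The endothelial, mural and mesenchymal lists summed to 10181, 3108 and 2622 CPM in the B cells against 33.5, 20.6 and 20.4 CPM in the kept cells outside the 50. Of the genes measured, 14.3% were higher in the B cells by the rule, and so were 20 of 20 endothelial, 13 of 14 mural and, of the 17 of 20 mesenchymal genes that reached 10 UMIs, 16.

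**Figure D3:**
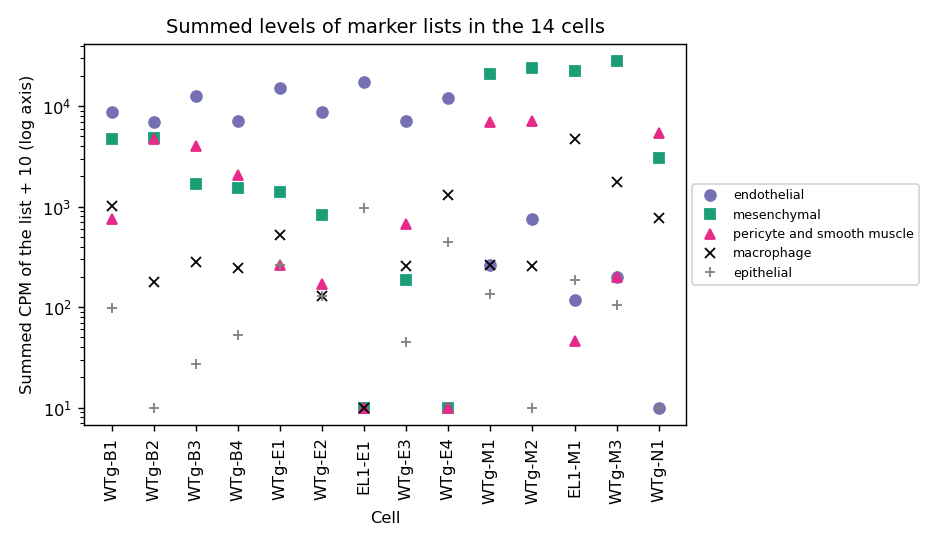
Summed level of 5 marker lists in each of the 14 cells, as CPM + 10 on a log axis, so that 10 on the axis is 0 UMIs. Endothelial and mural points are both high in the 4 B cells, while macrophage and epithelial sums reach at most 4739 and 967 CPM among the 14.

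Vessel basement membrane genes were high in the B cells and, at a lower summed level, in the E cells of WTg. The sums were 12197 CPM (11760 to 12646) in the B cells and 6628 CPM (6127 to 7158) in the E cells. In kept cells that were not chosen the sum was 76.3 CPM. EL1-E1, at 1034 UMIs, held 0 of the 12 genes, so the E sum came from WTg cells alone. Col4a1 and Col4a2, the collagen IV chains of the basement membrane, had 1737 and 952 UMIs in the 14 cells out of 3301 and 1631 in all kept cells. The largest share came from WTg-B3 with 755 and 475 UMIs. By the rule 12 of 12 basement membrane genes were higher in the B cells (14.3% of all genes), 11 of 12 in the E cells (11.0%) and 9 of 12 in the M cells (7.05%). Nid1, a linker of laminin and collagen IV, had 242 of 258 UMIs in the 14 cells.

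Receptors of the vessel pathways lay largely in the 14 cells, and their ligands in part. Flt1, a score gene, and Kdr had 640 of 646 and 184 of 209 UMIs in the 14 cells. Their main ligand Vegfa had 33 of 5084 UMIs there, at a level of 81.5 CPM (56.1 to 114, exact Poisson interval) against 71.0 CPM in the kept cells outside the 50, a value inside that interval. Outside the 50 it was at 62.8 CPM in EL1 (60.3 to 65.4) and 80.6 CPM in WTg (77.5 to 83.7). Of the 33 UMIs in the 14 cells, 15 were in EL1-M1. Vegfd, a further ligand of the family, was found in the 14 cells alone, with 23 UMIs in EL1-M1, 31 in WTg-M3 and 1 in WTg-B2. Angpt2, the angiopoietin of activated endothelium, had 33 of 67 UMIs in the 14 cells, up to 13 in WTg-B3, and Angpt1 had 0, with an upper limit of 9.11 CPM. Tek, the angiopoietin receptor, had 33 of 35 UMIs in the 14 cells, 15 of them in WTg-B3. Dll4, the Notch ligand of tip and arterial cells, had 48 UMIs in 6 of the cells, 31 of them in WTg-B3. In the B and E cells 4 of 7 measured VEGF family and receptor genes were higher, and 5 of 6 and 4 of 5 angiopoietin and TIE genes, beside 14.3% and 11.0% of all genes.

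The M cells are described as 2 pairs. EL1-M1 and WTg-M3 were fibroblast-like, with 18 and 20 of the 20 mesenchymal genes, and 2 and 3 of the 20 endothelial genes. Dcn, a score gene, had 771 and 275 UMIs in them, Lum 67 and 7, and Pdgfra, the fibroblast PDGF receptor, 2 and 7. Acta2 had 0 UMIs in both. WTg-M1 and WTg-M2 held 14 and 13 of 20 mesenchymal genes, but Dcn only at 8 and 5 UMIs. Matrix Gla protein (Mgp, an inhibitor of calcification and also a score gene) had 649 and 670 UMIs in them, of totals of 7976 and 8097. In CPM this was 81369 and 82747, against 9655 in EL1-M1 (271 UMIs) and 237 in WTg-M3 (5 UMIs). Mgp was thus higher in both cells of this pair than in both of the other, whose 2 cells also differed from each other. Outside the score, WTg-M1 and WTg-M2 held contractile Tagln (37 and 33) and Acta2 (10 and 18), with Bgn at 88 in each. The 2 cells of each pair were the nearest to each other among M cells, with a Pearson r across genes of 0.79 for EL1-M1 and WTg-M3, from different libraries, and 0.71 for WTg-M1 and WTg-M2, both of WTg and both near 0 mitochondrial UMIs, whose part in the values was not tested. WTg-N1, with 44 UMIs of Mgp, 32 of Sparc, 4 of Tagln and 2 of Acta2 in 1308 UMIs, held these genes at low depth. The 20 mesenchymal genes summed to 24261 CPM in the 4 M cells against 20.4 CPM in the kept cells outside the 50. Of the genes measured, 7.05% were higher in the M cells by the rule, and so were 19 of the 20 mesenchymal genes, the other being under 10 UMIs, and 1 of the 10 endothelial genes that reached 10 UMIs. Mfap5 and Lox, a microfibril protein and a collagen crosslinking enzyme, were among the 15 highest, at 2360 against 0.0143 CPM and 1563 against 0.0143 CPM.

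The inflammatory fibroblast genes were highest in WTg-M3, EL1-M1 and WTg-B1, at summed levels of 44910, 30534 and 18391 CPM from 11, 11 and 6 of the 12 genes. By the rule, 10 of 11 measured genes of that list were higher in the M cells, and 6 of 7 of the myofibroblast list, beside 7.05% of all genes. The antigen-presenting list had 0 of 6 higher. These counts pool 2 unlike pairs. WTg-M1 and WTg-M2 held 3 and 5 of the 12 inflammatory genes. Of the 10 myofibroblast genes they held 6 each, at 8651 and 9510 CPM. EL1-M1 and WTg-M3 held 3 each of these, at 1140 and 900 CPM. Il6 had 35 UMIs in EL1-M1 and 96 in WTg-M3, which are 1247 CPM (869 to 1734) and 4548 CPM (3684 to 5554). C3, complement component 3, had 363 and 172 UMIs, and Has1, a hyaluronan synthase, 80 and 97. The levels of the 2 M cells differed by more than counting error in some genes and not in others. Cxcl1, a neutrophil chemoattractant, was at 7090 CPM (6139 to 8147) in EL1-M1 and 6064 CPM (5059 to 7210) in WTg-M3. Ccl7 was at 6805 CPM (5874 to 7842) and 6916 CPM (5840 to 8134). Neither of these 2 chemokines differed beyond its interval, unlike the following ones. Ccl2 was at 2209 CPM (1694 to 2832) in EL1-M1 and 14970 CPM (13365 to 16715) in WTg-M3. Cxcl2 had 0 UMIs in EL1-M1, with an upper limit of 131 CPM, and 177 in WTg-M3. The alarmin Il33 had 2 and 29 UMIs, and the eotaxin Ccl11 went the other way with 78 and 15. With 1 cell a library these are values of 2 cells and not of EL1 and WTg. Mmp3, a matrix protease, had 65 and 24 UMIs and was found in no other kept cell, and its inhibitor Timp1 had 152 and 88. Of the macrophage genes these cells held Apoe alone, a lipid carrier that other cells also make, with 133 and 37 UMIs.

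**Figure D4:**
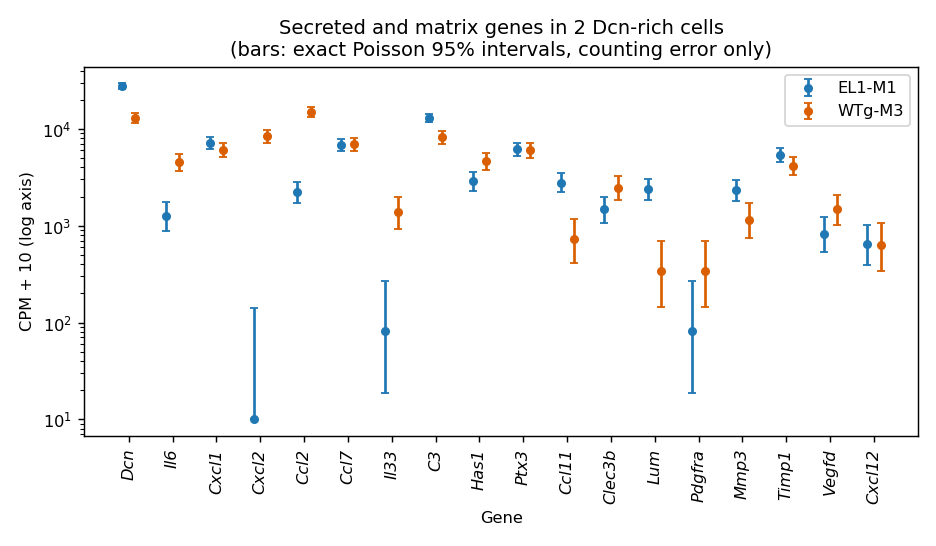
Levels of 18 genes in EL1-M1 (blue) and WTg-M3 (orange) as CPM + 10 on a log axis, with exact Poisson 95% intervals that cover counting error only. Intervals overlap for Cxcl1, Ccl7 and Ptx3 and lie apart for Ccl2, Cxcl2 and Il6.

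Most Il6 UMIs lay in the 14 cells and none of the interleukin 1 UMIs did. The 14 cells held 206 of all 246 Il6 UMIs (83.7%), in 6 cells: WTg-M3 with 96, WTg-B1 with 38, EL1-M1 with 35, WTg-B4 with 22, WTg-B2 with 9 and WTg-B3 with 6. No E cell held any. The 66 cells with at least 9 macrophage genes held 0, and 9 cells with no leukocyte markers held the other 40. Cxcl1 lay 91.0% in the 14 cells (762 of 837 UMIs). WTg-B1 held the most UMIs of it, 274 at a depth of 45458. EL1-M1 and WTg-M3 held 199 and 128 at depths of 28067 and 21109, so this order is of UMIs and not of level. Ccl2 and Ccl7 were shared with macrophage-marked cells, at 989 and 493 UMIs in the 14 cells against 1171 and 714 in the 66. Il1a, Il1b, Tnf and Il1rn had 0 UMIs in all 14, while the 66 cells held 150, 371, 30 and 113. Cells with no leukocyte markers held 2, 122, 88 and 317, which was more than the 66 for Tnf and Il1rn. Cells with lymphoid or neutrophil markers held further UMIs of Il1b, Tnf and Il1rn. The 14 cells held 0.571% of all UMIs, and 0 UMIs in them allows up to 9.11 CPM, so it is no absence. Lif, an interleukin 6 family cytokine, had 4 of 5720 UMIs in the 14 cells, and 5713 were in cells with no leukocyte markers.

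Mettl3 (chr14:52294841-52305128, GRCm38) is the methyltransferase of N6-methyladenosine that the WTg transgene encodes. It was at a low summed level in the 12 WTg cells among the 14. The 14 cells held 4 UMIs, 1 each in WTg-B2, WTg-B3, WTg-E3 and WTg-M3. In WTg this was 10.6 CPM (2.90 to 27.2) against 68.8 CPM (65.9 to 71.8) in WTg cells outside the 50 with no leukocyte markers, a log2 ratio of -2.69 (-4.57 to -1.33). In EL1 it was 0 of 29101 UMIs, which allows up to 127 CPM, so EL1 and WTg could not be compared in these cells. Over all 50 cells, Mettl3 was at 19.0 CPM (7 UMIs, 7.63 to 39.1) in EL1 and 30.0 CPM (23 UMIs, 19.0 to 45.0) in WTg, a log2 ratio of WTg over EL1 of 0.66 (-0.61 to 2.12). In all other kept cells that ratio was 2.16 (2.03 to 2.30). With each cell thinned to 2000 UMIs, 1 of 17 EL1 cells of the 50 and 1 of 30 WTg cells held a Mettl3 UMI, with 2 and 1 shallower cells left out, against 5 of 19 and 12 of 31 before thinning. In the other kept cells the thinned shares were 2.71% in EL1 and 14.9% in WTg. Of the 12 WTg cells among the 14, 11 could be thinned, and 0 held a Mettl3 UMI (0 to 28.5%). That interval includes the 15.3% of thinned WTg cells outside the 50 with no leukocyte markers, so the low level rests on summed UMIs alone. Macrophage-marked WTg cells outside the 50 were at 17.2 CPM (9.39 to 28.8), and WTg cells with lymphoid or neutrophil markers, at a median of 4193 UMIs a cell, stood at 81.3 CPM (37.2 to 154). UMIs of the transgene and of the gene itself cannot be told apart. Of 16 genes of the m6A machinery, only the reader gene Ythdc1 was higher by the rule in the B cells (312 against 129 CPM), and 0 in the E and in the M cells, against 14.3%, 11.0% and 7.05% of all genes.

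**Figure D5:**
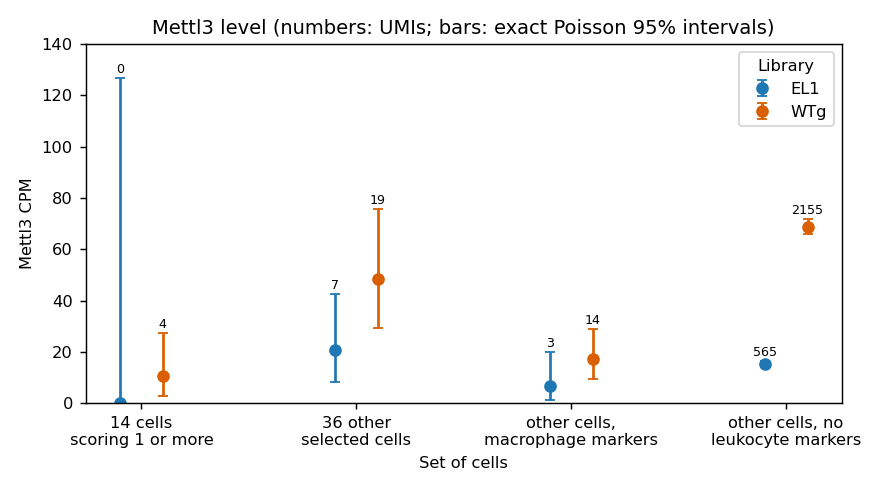
Mettl3 level in CPM by set of cells and library, with exact Poisson 95% intervals and the number of UMIs above each interval. In WTg the 12 cells scoring 1 or more lie at 10.6 CPM and cells with no leukocyte markers at 68.8 CPM. The EL1 point at 0 rests on 29101 UMIs.

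The 14 cells were 2 of 1113 kept cells in EL1 (0.180%, 0.0218 to 0.648, exact Clopper-Pearson interval) and 12 of 905 in WTg (1.33%, 0.687 to 2.30). Endothelial cells with the B cells included were 1 (0.0898%, 0.00227 to 0.500) and 8 (0.884%, 0.382 to 1.73), and mesenchymal cells with the B cells included were 1 and 7 (0.773%, 0.312 to 1.59), and in both pairs the intervals overlapped. Without the cells with at most 1 mitochondrial UMI, 1 of 1099 (0.0910%, 0.00230 to 0.506) and 10 of 892 (1.12%, 0.539 to 2.05) remained. For all 14 cells and for these 11 the intervals did not overlap, but they cover counting error only, and with 1 library a group the share a digestion releases and the share in the tumour cannot be told apart. Over the whole 50 the shares were 1.71% in EL1 (1.03 to 2.65) and 3.43% in WTg (2.34 to 4.83), with the 36 unlike cells included, and these intervals overlapped.

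Within classes, 3 or more cells from each library were present only in the class with Cdh5 or Pecam1 alone and in the class with neither. In the first, 63 of 540 genes with at least 100 UMIs were higher in WTg by a log2 ratio of 1 or more and 52 lower. Counts under 3 were set to 3 for the ratio and kept for its interval. The highest were Col4a1 (289 against 2 UMIs, log2 ratio 5.91, 4.63 to 9.55), Sparc, a score gene (586 against 7 UMIs, 5.71), and the MHC class II chain H2-Aa (291 against 4 UMIs, 5.51), followed by Hspa1a and Tm4sf1. The lowest were the granule protein Chga (2 against 532 UMIs, -8.15, -11.78 to -6.87), Reg3b (-7.30), Cel (-6.69) and Reg1 (-6.29), followed by Vtn. The 13 WTg cells held 4 of the cells scoring 1 or more and 5 macrophage-marked cells, and the 10 EL1 cells held 1 and 2, so the ratios compare different mixtures. In the class with neither, 48 of 364 genes were higher and 38 lower, led by the digestive enzyme genes Prss3 (620 against 1 UMI, 7.77, 6.87 to 14.66) and Cela3b and, lower, by 1810009J06Rik (-2.70).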

How the data were processed

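Cells from digested pancreatic tumours were run on the 10x Chromium 3′ platform (v3.1), 1 library each from EL1 and WTg. The deposited matrices hold raw UMI counts by gene and cell barcode; the authors counted with Cell Ranger 6.0.2 (file header) on build GRCm38 (the submitters' processing notes, which also name R 4.1 and Seurat 4.0.5). Whether intronic reads were counted was not given in the sources used here. The deposited dense tables of counts served as an alternative.

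Barcodes with at least 500 genes, 1000 UMIs and at most 20% mitochondrial UMIs were kept. The members and gene lists were chosen with earlier results of these data known. The text names genes of 30 fixed lists and, by size, the 15 highest log2 ratios per class (at least 50 UMIs, seen in at least 50% of its cells) and the 5 highest and 5 lowest between libraries (at least 100 UMIs, 3 cells); classes were also ranked over cells scoring 1 or more alone, which was decided after the scores were seen. Symbols occurring more than once were left out. Sums of UMIs were scaled to 1000000 (CPM), with a floor of 3 UMIs for a ratio and exact 95% intervals for counting error only. With 1 library per group no test was made. Macrophage marking needed 9 of 14 genes, and lymphoid or neutrophil marking at least 5 T or NK, 3 B or 5 neutrophil genes. Scrublet (scanpy 1.11.5, expected rate 2%) called 2 doublets in EL1 and 3 in WTg, which were kept. Functions were tested on simulated data. TMM came from edgeR. Gene positions were from GENCODE M21. Barcode totals were 1621 in EL1 and 1488 in WTg.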

Additional observations from a re-analysis of the deposited data

Results flagged for a closer look

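Among the barcodes that the filters removed but that had at least 200 genes, 2 scored 1 or more, above any of the 36 lower chosen cells. Both were WTg and held UMIs of Cdh5 or Pecam1 and not of Col1a2 or Col3a1. One had 2003 UMIs with 22.8% mitochondrial UMIs and 12 of 20 endothelial genes, and the other 984 UMIs, 0.102% mitochondrial, with 9 of 20. No comparison of the report used them.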

How the results depend on the processing

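No paired analysis was possible because there was only 1 library for EL1 and 1 for WTg. Among the alternatives tried, 46 values remained inside the reported value's counting interval (for counts, within 1.5 times) and 9 moved further. Some of the 46 say little: removing doublet calls took out none of the 50 cells, and the dense tables gave identical values. The log2 ratios of Mettl3 and of the summed lists all stayed positive, while shares and counts have no direction. The share of the 50 cells with Cdh5 or Pecam1 was 54%, and became 36% when the score was taken on cells thinned to 2000 UMIs and 22% when at least 3 UMIs were required. The share with Col1a2 or Col3a1 was 22% and became 40% with 25 cells. Restricted to a score of 1 or more, which was chosen after seeing the data, the EL1 share of the cells fell from 38% to 14.3% and the mesenchymal share rose to 57.1%. The summed endothelial and mesenchymal lists in the 50 cells over all others had log2 ratios of 6.49 and 6.68, which became 5.82 and 6.36 as mean CPM over cells and 7.97 and 8.11 at a score of 1 or more. The number of cells scoring 1 or more was 14 and ranged from 11 to 16. For Mettl3 over the 50 cells, the log2 ratio of WTg over EL1 ran from 0.45 to 1.67. The reported interval spans 0, and so do the alternatives' intervals except with cells thinned to 2000 UMIs (1.67, 0.77 to 2.63) and with 100 cells (1.60, 0.84 to 2.46). Mean CPM over cells (1.22) has no interval. Depth limits the shallow cells most, where 0 UMIs of a gene is no absence.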

Other observations

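The cell just under the gap in score, at 0.340, came from EL1 and held 31023 UMIs, of which 23 were of the 10 score genes. It carried secreted genes of the fibroblast-like cells, with 45 UMIs of Cxcl1, 43 of C3, 40 of Tnfaip6, 21 of Ptx3 and 11 of Il6, and none of Dcn. Tnfaip6 had 2 UMIs in all kept cells outside the 50 together. It also held adipocyte genes, with 8 UMIs of Adipoq, against 3 in all kept cells outside the 50, and 67 of Fabp4. The same barcode held 9 of 10 epithelial and 13 of 16 acinar genes, with 16 UMIs of Epcam and 110 of Krt8. Whether this was 1 cell or several in 1 droplet cannot be told apart.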
